A study of Mus musculus with 2 samples.

Results

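Amino acids cross the plasma membrane through transporters of the solute carrier (Slc) families, and 10 genes of these families were followed here: *Slc7a11*, *Slc6a9*, *Slc1a4*, *Slc1a5*, *Slc3a2*, *Slc7a5*, *Slc7a1*, *Slc38a1*, *Slc38a2* and *Slc7a3*. They were taken by name, as every probe that is not a control and whose gene name, or whose current symbol by its RefSeq accession, is on this list. This gave 23 probes for the 10 genes, of 27790 genes or transcripts on the arrays. RNA of 2 untreated mouse melanoma lines in culture was compared: B16F1-GFP-M, the maternal line, and B16F1-GFP-D, which was derived from dormant disseminated cells of it. Both lines are B16F1 cells that carry a GFP expression plasmid, and both were grown in DMEM with serum. B16F1-GFP-D goes back to a single colony, from GFP+ cells sorted out of the pooled organs of control and immunised tumour-free mice, so it stands for 1 clone and not for dormant cells in the animal. The paper describes the maternal line as clonal too. The RNAs were hybridised together on 2 two-colour Agilent arrays of 1 slide: on array 1 Cy5 marked the maternal line and Cy3 the dormant-derived line, and on array 2 the dyes were exchanged.

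Since neither separate cultures nor separate extracts are named in the labels, the arrays counted as 1 replicate per line and no test between the lines was possible. All ratios are log2 of the level in B16F1-GFP-D over that in B16F1-GFP-M, so that -1 is a level 2-fold lower in B16F1-GFP-D. The spread given is the SD between the 2 arrays. It contains dye effects but not how cultures vary. A gene was detected when 1 and the same line was well above background on both arrays, by the scanner software's flag, and it was called when it was detected and past 2-fold in the same direction on each array. Between 44.1% and 60.7% of the spots were well above background per line and array, and no spot was saturated. Of the 12541 detected genes, 1.94% were called lower and 3.09% higher in B16F1-GFP-D, 5.02% in all, and the pooled SD between the arrays was 0.15. Of 10 melanocyte markers, 9 were detected in both lines and none was called, and *Kit* was not detected. The lowest of the 9 was *Mitf*, with a mean of -0.92, and the highest *Gpr143*, with 0.37. No endothelial, epithelial or liver marker was detected, and of the fibroblast and leukocyte markers 2 of 7 and 3 of 7 were. *Col1a1*, *Cd3e* and *Cd68* were well above background on both arrays in B16F1-GFP-D only, with mean ratios of 0.40, -0.01 and 0.44. *Col1a2* and *Lyz2* were so in both lines. Of 4 neural markers only the glial *Gfap* was detected, well above background on both arrays in B16F1-GFP-M, and its mean ratio was -0.09. None of these markers was called.

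Cells import amino acids for protein synthesis, for glutathione and as signals to mTORC1, the kinase complex that couples growth to nutrients. Exchangers of the *Slc7* family bring in cystine or large neutral amino acids while another amino acid leaves, and several of them need the heavy chain encoded by *Slc3a2* to reach the membrane. Sodium-coupled carriers of the *Slc1*, *Slc6* and *Slc38* families bring in glutamine, alanine, serine and glycine, and many transporter genes are induced by the transcription factor ATF4 when amino acids run short.

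Of the 9 transporters that were detected, 5 were called lower in B16F1-GFP-D and 0 were called higher, where 1.94% of all detected genes were called lower. These were *Slc7a11*, *Slc6a9*, *Slc1a4*, *Slc1a5* and *Slc3a2*. All 9 had a negative ratio on both arrays, which was so for 42.8% of the detected genes, and 0 had a positive ratio on both, against 41.0% of the detected genes. At a threshold of 1.5-fold, *Slc7a5* and *Slc7a1* were also called, 7 of the 9 in all, against 7.02% of the detected genes. Their median was -1.12, and that of all detected genes was -0.01. *Slc7a3* was not detected and has no place in these counts. In bulk RNA like this, fewer cells with a transcript and less of it per cell cannot be told apart. With 1 replicate per line, a difference between the lines and a difference between the cultures at harvest cannot be told apart either.

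**Figure D1:**
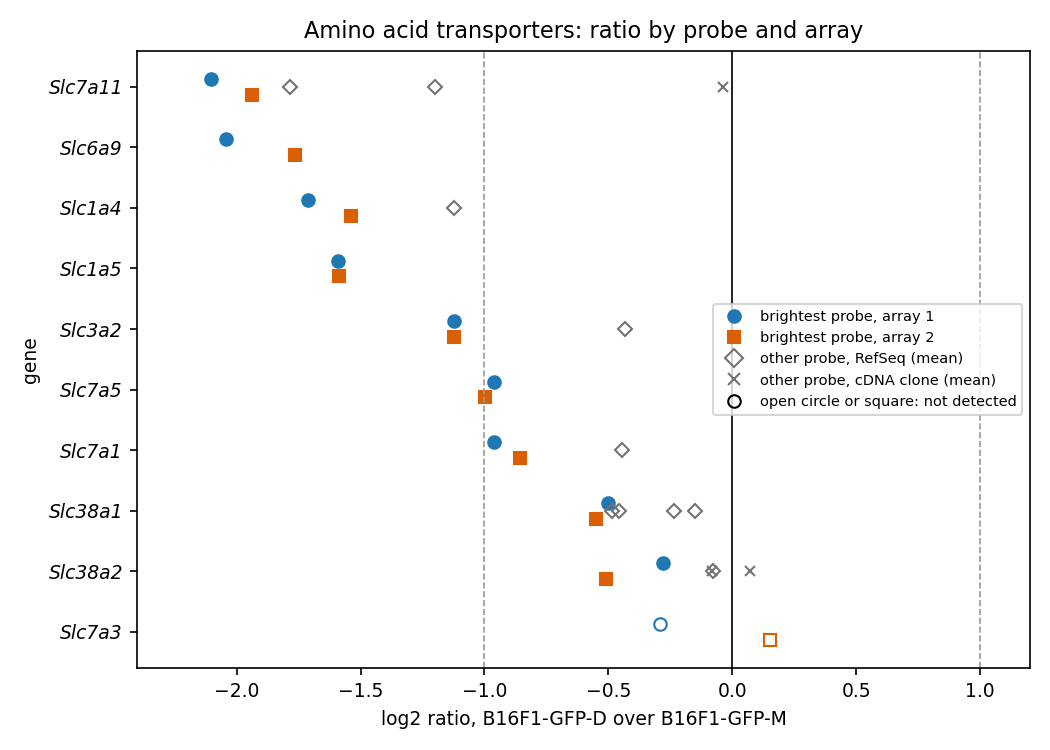
Log2 ratio (B16F1-GFP-D against B16F1-GFP-M) for each of the 10 transporters, ordered by their means. Circles and squares give the brightest probe on arrays 1 and 2, open where the gene was not detected, grey diamonds and crosses give the means of the other probes, and dashed lines mark 2-fold. The 5 called genes lie left of the lower dashed line on both arrays, from -2.02 for *Slc7a11* to -1.12 for *Slc3a2* in the mean.

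*Slc7a11* encodes xCT, the light chain that exchanges extracellular cystine for glutamate and so supplies cysteine for glutathione. Its 4 probes are shown here because they did not all give the same ratio. The first 30 of the 60 bases of each are printed, with the position of the whole probe on the minus strand of the mm9 genome.

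brightest RefSeq probe (chr3:50176047-50176106): cctctagcgtattcaaattaatttttgagc
RefSeq probe with the second largest decrease (chr3:50170338-50170397): tgcaaccaaaattttaactaggttcttctt
RefSeq probe with the smallest decrease (chr3:50169700-50169759): agtaatgtatcaggagctttatgtaaatgt
cDNA clone probe (chr3:50246786-50246845): aagggttatttctgtggagtaaatgaatgg

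At the brightest probe, the log2 intensity in B16F1-GFP-M was 10.37 on array 1 and 10.29 on array 2. In B16F1-GFP-D it was 8.27 and 8.35. The lines did not overlap, and the ratio was -2.10 on array 1 and -1.94 on array 2, with a mean of -2.02 (SD 0.11), or 4.06-fold lower in B16F1-GFP-D. Only 25 of the 12541 detected genes had a lower mean. The other RefSeq probes had means of -1.78 and -1.20, both past 2-fold on each array. They were dimmer, and the offset used in the background correction draws the ratios of dim spots towards 0: with an offset of 0 they had -2.402 and -1.72, against -2.26 for the brightest. In the scanner software's own ratios, where the background subtraction and the dye normalization differ as well, the values were -2.70 and -2.002 against -2.35. The probe designed on a cDNA clone, 70.7 kb upstream of the brightest along the gene's strand, had -0.17 and 0.10 on the 2 arrays and showed no common direction. Which exon or untranslated region each probe lies in was not analysed here.

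The 250 bases before the start of *Slc7a11* (RefSeq, GRCm38.p6, chr3:50443614-50443863, minus strand) hold the core of the C/EBP-ATF response element, TGATGNAA, on each strand. This is the element that ATF4 is known to bind with C/EBP partners. The matches are in capitals, the right one read on the opposite strand.

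Slc7a11 upstream: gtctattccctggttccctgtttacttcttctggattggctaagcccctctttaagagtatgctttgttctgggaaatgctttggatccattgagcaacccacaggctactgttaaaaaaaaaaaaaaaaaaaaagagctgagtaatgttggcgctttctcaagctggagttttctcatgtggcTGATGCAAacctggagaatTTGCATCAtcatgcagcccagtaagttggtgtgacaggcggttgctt

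Counted from the start, the matches begin at positions -66 and -47 and are 11 bases apart. RefSeq promoters, from 250 bases before to 50 after the start, were found for 6 of the 10 transporters: *Slc7a11*, *Slc6a9*, *Slc1a4*, *Slc3a2*, *Slc7a1* and *Slc38a2*. Searched on both strands, TGATGNAA was in 2 of the 6, *Slc7a11* and *Slc1a4*, and in at least 1 promoter of 4.51% of all 27025 genes; it was in 3.97% of all 32851 promoters, since some genes have several. The match of *Slc1a4* spans the start itself, and is shown with its flanks in a window of 30 bases on chromosome 11.

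Slc1a4 start: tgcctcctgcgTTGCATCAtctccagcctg

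The core of the antioxidant response element, TGACNNNGC, was in the promoters of *Slc7a1*, *Slc38a2* and *Slc6a9* and in those of 14.0% of all genes (12.4% of all promoters). The E-box CACGTG was in 0 of the 6 and in 8.09% of all genes (7.15% of all promoters). None of the 6 genes had more than 1 of these motifs, so no matches of different motifs overlapped. A match describes the sequence and shows no binding, and a window without one says nothing about the factor.

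*Slc3a2* encodes 4F2hc, also known as CD98, the heavy chain that pairs with the light chains of *Slc7a11*, *Slc7a5* and several others. Its brightest probe had a log2 intensity of 14.61 and 14.73 in B16F1-GFP-M on arrays 1 and 2, and of 13.49 and 13.60 in B16F1-GFP-D. The ratio was -1.12 on each array, or 2.18-fold lower, with an SD of 0.001. This was the smallest decrease among the called transporters. The second RefSeq probe lies 6.0 kb upstream along the gene's strand and gave -0.51 and -0.35. The direction was the same and the size was not: with the scanner software's ratios the probes had -1.15 and -0.54. Both are shown by their first 30 bases, on the minus strand of mm9.

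Slc3a2 brightest probe (chr19:8782189-8782248): gagggcttgctgttacagttcccctttgtg
Slc3a2 upstream probe (chr19:8788183-8788242): gcaccatgagccaggacaccgaagtggaca

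*Slc7a5* encodes LAT1, which takes up leucine and other large neutral amino acids as a partner of 4F2hc. Its single probe (chr8:124405142-124405201, mm9) had 10.55 and 10.50 in B16F1-GFP-M and 9.59 and 9.50 in B16F1-GFP-D, as log2 intensities on arrays 1 and 2. The lines did not overlap, and the ratio was -0.96 and -0.998 with a mean of -0.98 (SD 0.03), 1.97-fold lower. It fell just short of 2-fold and was not called, whereas *Slc3a2* lay just past it. In the scanner software's ratios *Slc7a5* had -1.09 and was called.

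The heavy chain's other light chains did not share this direction throughout. *Slc7a8*, which encodes LAT2, a carrier of small and large neutral amino acids, was called higher: its ratios were 1.12 and 1.29, with a mean of 1.21, 2.31-fold higher in B16F1-GFP-D. *Slc7a7*, which encodes y+LAT1 for cationic and neutral amino acids, had a mean of -0.58, and *Slc7a6*, which encodes the related y+LAT2, 0.29. Neither was called. *Slc7a10*, another light chain, and *Slc3a1*, the heavy chain of the cystine transporter of kidney and gut, were not detected.

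The glutamine and serine carriers were lower as well. *Slc1a5* encodes ASCT2, which exchanges glutamine, serine and other neutral amino acids. Its only probe (chr7:17383359-17383418, mm9) had 12.02 and 12.01 in B16F1-GFP-M and 10.43 on both arrays in B16F1-GFP-D. The ratio was -1.59 on each array, or 3.01-fold lower, with an SD of 0.004. *Slc1a4* encodes ASCT1, a carrier of alanine, serine, cysteine and threonine. Its brightest probe (chr11:20202533-20202592, mm9) had 10.13 and 9.86 in B16F1-GFP-M and 8.42 and 8.32 in B16F1-GFP-D. The lines lay apart, with ratios of -1.71 and -1.54 and a mean of -1.63 (SD 0.12), 3.09-fold lower. The second probe of *Slc1a4* had -1.27 and -0.97, so that it missed 2-fold on array 2.

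*Slc6a9* encodes GlyT1, which takes up glycine with sodium and chloride and is best known from glia. Its only probe (chr4:117541835-117541894, mm9) had 13.23 and 13.22 in B16F1-GFP-M and 11.19 and 11.46 in B16F1-GFP-D. The ratio was -2.04 on array 1 and -1.76 on array 2, with a mean of -1.90 (SD 0.20), 3.74-fold lower in B16F1-GFP-D. After *Slc7a11*, this was the second largest decrease of the set at the brightest probes.

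*Slc7a1* encodes CAT1, the main carrier of arginine and lysine in many cells. Its brightest probe had 11.90 and 11.80 in B16F1-GFP-M and 10.94 and 10.95 in B16F1-GFP-D, with ratios of -0.96 and -0.86. The mean of -0.91 (SD 0.08) is 1.88-fold lower, short of 2-fold on each array. A second, dimmer probe had -0.44 in the mean. The lines did not overlap at either probe. *Slc7a3*, which encodes the related CAT3, had 6.52 and 6.08 in B16F1-GFP-M and 6.23 and 6.24 in B16F1-GFP-D. It was well above background on 0 arrays in B16F1-GFP-D and on 1 in B16F1-GFP-M. Its ratios of -0.29 and 0.15 have no common direction, and no fold or bound was given.

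**Figure D2:**
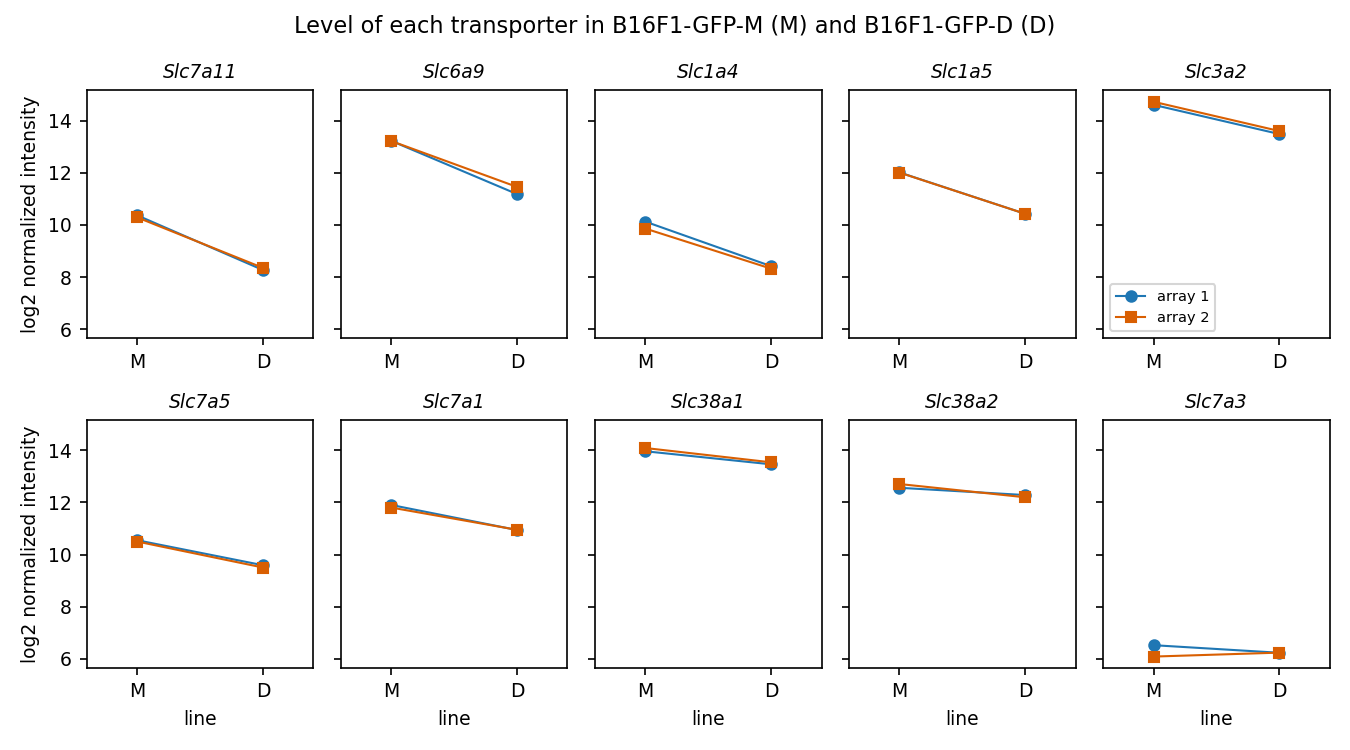
Log2 normalized intensity of the brightest probe of each transporter in B16F1-GFP-M (M) and B16F1-GFP-D (D), one panel per gene, with one line per array. In the 9 detected genes both arrays slope down from M to D, and *Slc7a3* stays near 6 on both; heights cannot be compared between genes, since each has its own probe.

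The sodium-coupled neutral carriers of the *Slc38* family moved least. *Slc38a1* encodes SNAT1, which takes up glutamine and alanine. Its brightest probe had 13.96 and 14.09 in B16F1-GFP-M and 13.46 and 13.54 in B16F1-GFP-D, and its ratio had a mean of -0.53 (SD 0.03). Its 5 probes had means from -0.53 to -0.15, of which 4 were negative on both arrays. *Slc38a2* encodes SNAT2, a carrier of similar range whose gene is known to be induced by amino acid starvation. Its brightest probe had 12.56 and 12.71 in B16F1-GFP-M and 12.28 and 12.20 in B16F1-GFP-D. The ratios were -0.28 and -0.51 with a mean of -0.39 (SD 0.16). The other RefSeq probe was nearly as bright and had a mean of -0.08, and the 2 cDNA clone probes had -0.08 and 0.07. The decrease of *Slc38a2* therefore rests on 1 of its 4 probes.

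At the brightest probes, the order of the decreases ran from *Slc7a11* through *Slc6a9*, *Slc1a4*, *Slc1a5*, *Slc3a2*, *Slc7a5*, *Slc7a1* and *Slc38a1* to *Slc38a2*. This order changed with the processing. With the median over probes *Slc7a11* had -1.49, behind *Slc6a9* with -1.90 and *Slc1a5* with -1.59. *Slc3a2* fell behind *Slc7a5* with the median over probes, -0.78 against -0.98. With median centring it did so too, -0.80 against -0.88. Neighbours at the brightest probes whose array values overlapped were *Slc7a11* and *Slc6a9*, *Slc1a4* and *Slc1a5*, *Slc7a5* and *Slc7a1*, and *Slc38a1* and *Slc38a2*. Of the 23 probes, 22 were detected, 18 were negative on both arrays, 7 were past 2-fold lower on both and 0 past 2-fold higher.

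**Figure D3:**
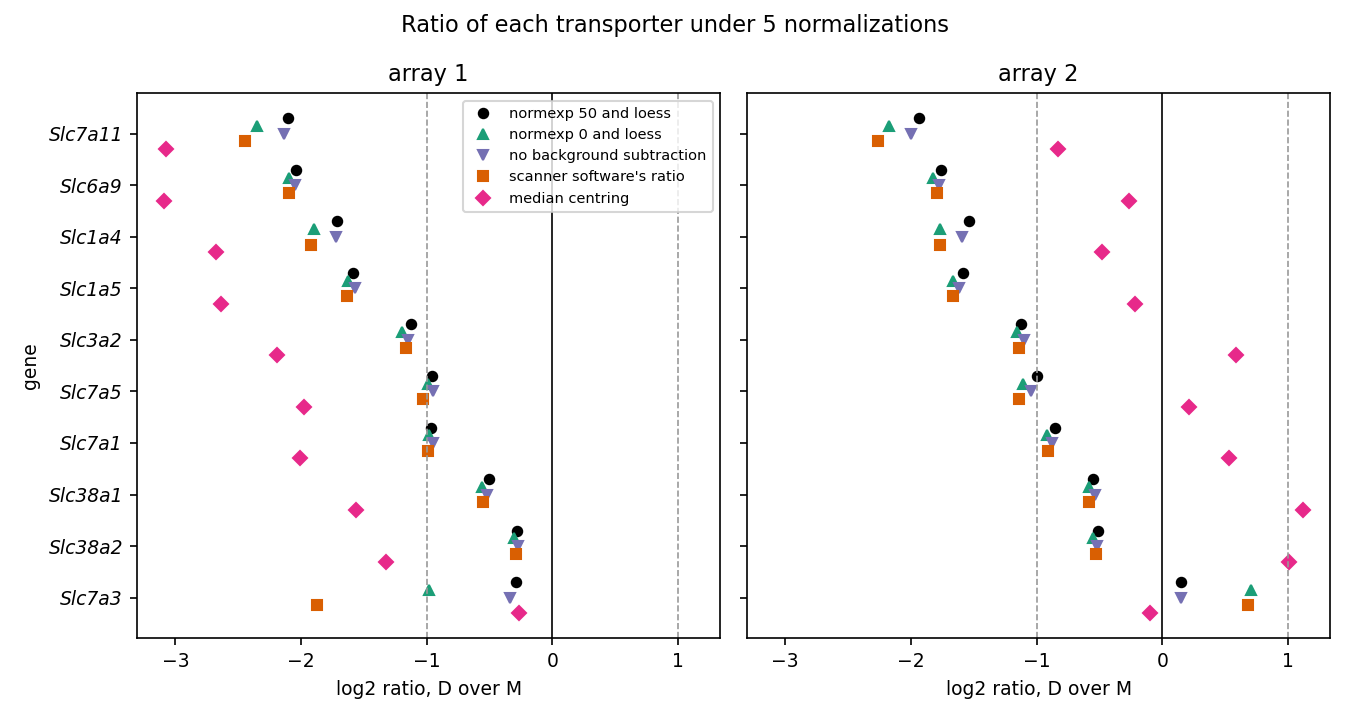
Log2 ratio of each transporter's brightest probe on array 1 (left) and array 2 (right) under 5 normalizations, with dashed lines at 2-fold. With median centring (diamonds) the bright probes shift left on array 1 and right on array 2, while in the 9 detected genes the other 4 normalizations lie close together.

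The values depended on removing the trend of the dye ratio with brightness. When the arrays were only centred on their medians, the detected transporters lay between -3.09 and -1.33 on array 1 and between -0.83 and 1.12 on array 2, and 0 of them were called. *Slc7a11*, *Slc6a9*, *Slc1a4* and *Slc1a5* were still negative on both arrays, and the other 5 were positive on array 2. The means over the dye swap were negative in all 9 and past 2-fold lower in the same 4 genes. Under that centring 64 genes were called in all, against 630 with loess.

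Beyond the set, 33 other transporters of amino acids at the plasma membrane were listed, of which 32 were on the arrays and 7 were detected. Of the 7, 0 were called lower and 2 were called higher, *Slc7a8* and *Slc6a6*, and the median was 0.29. *Slc6a6*, which encodes the taurine transporter, had 1.66 and 1.47 on the 2 arrays, with a mean of 1.56, 2.96-fold higher in B16F1-GFP-D. All detected genes with an Slc symbol outside the set numbered 187, the 7 above included. Of these, 0 were called lower, against 1.94% of all detected genes. Called higher were 8, *Slc7a8* and *Slc6a6* among them. Their share of 4.28% was near the 3.09% of all detected genes. The median of the 187 was -0.06. With the scanner software's ratios 8 of the 187 were called lower, and with an offset of 0 there were 2. The largest increases were *Slc16a3*, which exports lactate, with 3.42, and *Slc2a1*, the glucose transporter GLUT1, with 1.70. *Slc25a10* and *Slc25a13*, carriers of dicarboxylates and of aspartate and glutamate in the mitochondrial membrane, had 1.44 and 1.30. The transporters of the set were picked with results of these arrays known, so the contrast with the other Slc genes describes these values only.

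**Figure D4:**
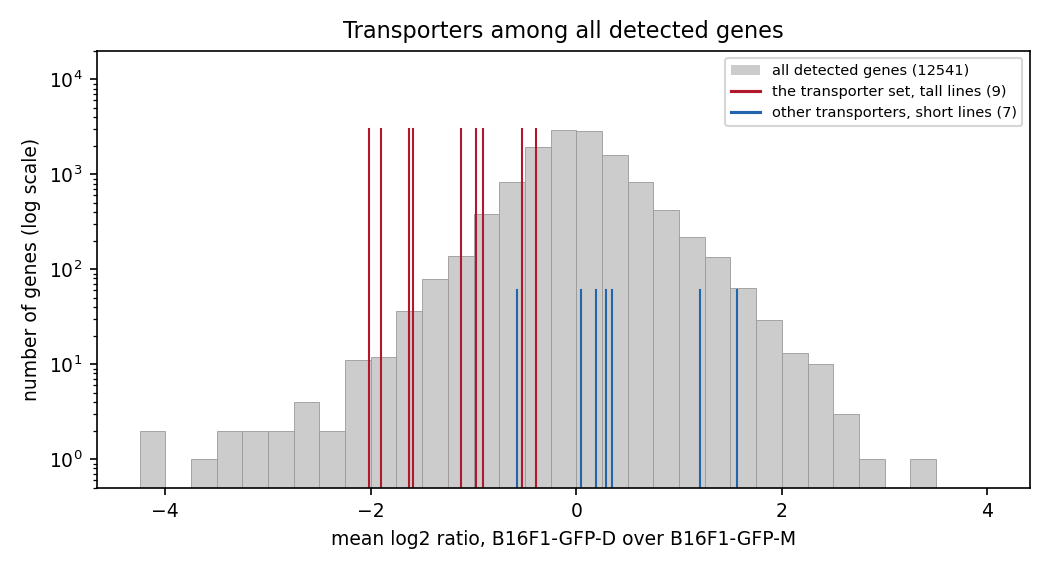
Number of detected genes (log scale) by mean log2 ratio (B16F1-GFP-D against B16F1-GFP-M). Tall lines mark the 9 detected transporters of the set, from -2.02 to -0.39, and short lines the 7 other detected amino acid transporters, from -0.58 to 1.56.

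Lysosomal amino acid transporters, which release amino acids from the lysosome where mTORC1 is activated, held 0 called genes among 7 detected, with a median of 0.07. The lowest was *Slc38a7*, which exports glutamine from lysosomes, with -0.88, and the highest *Slc15a4*, a carrier of histidine and peptides, with 0.67. Of 34 detected genes of amino acid sensing by mTORC1, 2 were called lower and 0 higher, with a median of -0.14. The share called lower was 5.88%, against 1.94% of all detected genes. The 2 were *Sesn2*, which encodes the leucine sensor Sestrin2, with -1.36, and *Lars*, leucyl-tRNA synthetase, with -1.18.

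The genes that use the imported amino acids were mixed. In the glutathione list, 2 of 17 detected genes were called lower, or 11.8% against 1.94% of all detected genes, and 0 higher. The 2 were *Chac1*, which degrades glutathione, with -2.15 (SD 0.25), and *Cth*, which makes cysteine from cystathionine, with -2.12 (SD 0.20). The list's median was -0.19. Of 17 detected enzymes that act on glutamine, branched-chain and other imported amino acids, 1 was called lower and 2 were called higher, with a median of 0.25. These shares were 5.88% and 11.8%, against 1.94% and 3.09% of all detected genes. *Bcat1*, the cytosolic branched-chain aminotransferase, had -1.42. *Glul*, glutamine synthetase, had 1.16 and *Got2*, the mitochondrial aspartate aminotransferase, 1.06. So *Cth* was lower along with the cystine carrier *Slc7a11*, and *Glul* was higher where the glutamine carrier *Slc1a5* was lower.

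Among 18 detected regulators of these genes, 6 were called lower, or 33.3%, against 1.94% of all detected genes. Called higher were 0, and the median was -0.53. On both arrays 10 were negative and 4 were positive. The 4 were *Eif2ak1* with 0.27, *Eif2ak2* with 0.21, *Eif2ak3* with 0.35 and *Eif2ak4* with 0.24. *Atf5*, a transcription factor of the stress response, had the largest decrease with -3.37, followed by *Trib3*, an inhibitor of ATF4, with -3.24. *Cebpb* had -2.67, *Ddit3*, which encodes CHOP, -2.29, *Ppp1r15a*, the phosphatase subunit GADD34, -1.93 and *Cebpg* -1.28. *Atf4* itself had -0.70, 1.62-fold lower, and *Nfe2l2*, whose product NRF2 also drives *Slc7a11*, had 0.13 and -0.12 with a mean of 0.00. *Myc* had -0.98 and -1.17 with a mean of -1.07, and was not called since it missed 2-fold on array 1. *Atf4*, *Nfe2l2*, *Myc* and the *Eif2ak* genes were named after their values had been seen. Of the 11 genes called lower in these lists, 9 had a RefSeq promoter, and TGATGNAA was in 2 of them, *Chac1* and *Trib3*.

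**Figure D5:**
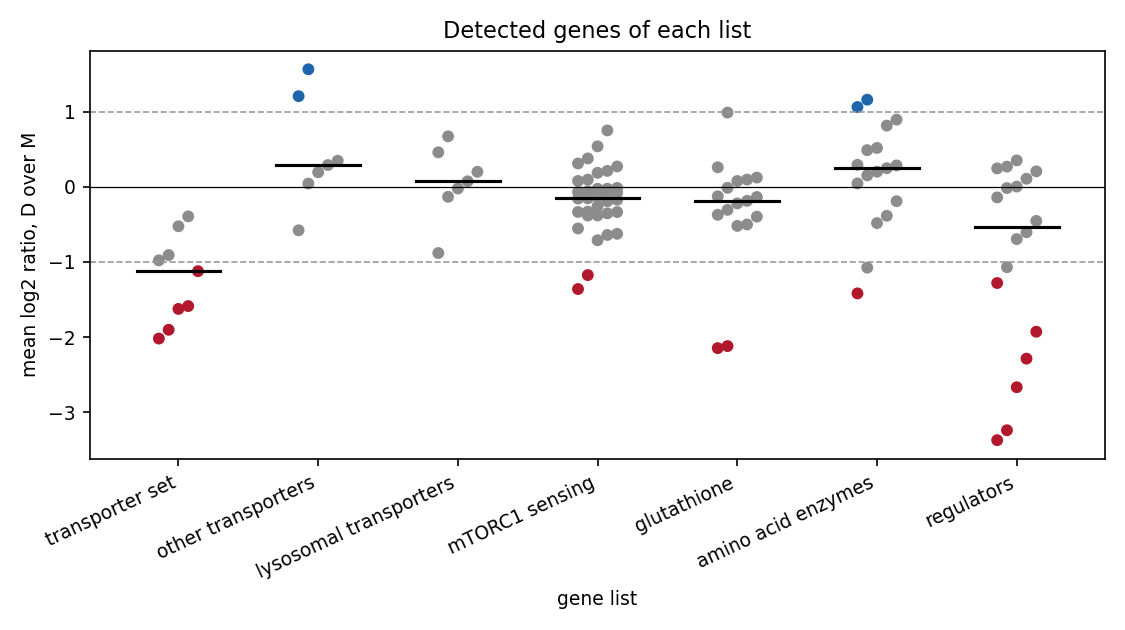
Mean log2 ratio (B16F1-GFP-D against B16F1-GFP-M) for the detected genes of each list, with red for genes called lower, blue for genes called higher, grey for the rest, black bars for medians and dashed lines at 2-fold. The transporter set has the lowest median, -1.12, followed by the regulators with -0.53, and the other 5 medians lie between -0.19 and 0.29.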

How the data were processed

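Both lines were hybridised together on 2 Agilent arrays, dyes swapped. Spot and local background intensity values were deposited as the authors read them out with Agilent Feature Extraction 10.7.3.1. The deposited log ratios, in the scanner files and in the series value table, are log10 of Cy5 over Cy3 after the software's own background subtraction and dye normalization. Flags for detection and for outliers were taken from the other deposited columns.

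In R 4.3.3 with limma 3.58.1, all 43379 non-control spots, of 41174 probes, were corrected by normexp (offset 50, mean signal and median local background). Loess normalization ran within arrays, with controls and outliers at weight 0. For the printed intensities and the choice of the brightest probe, brightness was also scaled between the arrays (Aquantile). That step leaves the ratios as they are. Outlier spots, 143 and 176 per array, were then left out, spots of a probe were averaged, and each gene was read from its brightest probe. Names came from the RefSeq accessions matched to GRCm38.p6, used for names and promoters only. Probe coordinates were copied from the array files and refer to mm9. Further steps used Python 3.11.15 with pandas 2.3.3, numpy 2.4.6 and, for figures, matplotlib 3.10.9.

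With 1 replicate per line no test was made, and the rule of size, at least 2-fold with the same sign on each array in detected genes, took its place. The number of arrays limits the precision. The named genes are the 10 transporters, the partners of their heavy chain, and of each other list the called genes, at most the 6 largest, or the highest and the lowest where none was called. The members and lists were chosen with earlier results of these data known. The alternatives were other background corrections and normalizations, other filters, a median over probes, single arrays and other fold thresholds. The procedure was also run on a simulated dye swap, with changes larger than 2-fold in probes well above background in both lines. That run does not cover dim probes, ratios near 2-fold or variation between cultures.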

Additional observations from a re-analysis of the deposited data

How the results depend on the processing

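The count of 5 transporters called lower was 5 with an offset of 0, no background subtraction, no filter and detection required in both lines. It was also 5 on each array alone, where it could not be lower since a call needs both arrays, and with Aquantile scaling, which leaves the ratios as they are. It was 6 with the scanner software's ratio and the value table, which added *Slc7a5*, and 4 with the median over all probes, which lost *Slc3a2*. At 1.5-fold it was 7, and at 3-fold it was 3, *Slc7a11*, *Slc6a9* and *Slc1a5*, with 0 other transporters called higher. With median centring it was 0, as were the other transporters called higher. The loess curve that this setting leaves out removes the trend of the dye ratio with brightness. The share of all detected genes called lower, 1.94%, moved as well. It was 4.77% with the software's ratio, 4.74% with the value table, 3.52% with an offset of 0 and 7.02% at 1.5-fold. With no background subtraction it was 2.08%, with the median over probes 1.51%, at 3-fold 0.391% and with median centring 0.152%. No transporter of the set was called higher, and none of the list of 33 other plasma membrane amino acid transporters lower, under any of these alternatives; among all 187 other detected Slc genes, 8 were called lower with the software's ratio, 8 with the value table, 2 with an offset of 0 and 8 at 1.5-fold, and with array 2 alone 1 of 229 was. The median of the detected transporters, -1.12, was -1.15 with the software's ratio and with the value table, -0.88 with median centring and -0.98 with the median over probes. It was -1.18 with an offset of 0, -1.05 with no filter and -1.13 where no background was subtracted. Array 2 alone gave -1.12 and array 1 alone -1.04. The medians with no filter and with array 1 alone also take in *Slc7a3*, and over the 9 detected transporters array 1 gave -1.12. The mean ratio of each detected transporter was negative with median centring, the median over probes, the software's ratio, the value table, no background subtraction and an offset of 0.

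Over all genes the calls rose from 630 to 1357 with the software's ratio, 1353 with the value table and 1077 with an offset of 0, and fell to 64 with median centring. No paired analysis was possible because the lines have a single replicate each, and a slide effect could not be fitted because both arrays lie on 1 slide. Dim probes limit the values: *Slc7a3* was near background, and its mean ran from -0.59 to 0.15 over the settings.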
